A study of Mus musculus with 8 samples.

Results

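The 10 genes described here supply, receive or set free the insulin-like growth factors (IGFs) in primary lung fibroblasts (pFBs) of the mouse. They are the ligand genes Igf1 and Igf2, the receptor genes Igf1r, Igf2r and Insr, the adaptor genes Irs1 and Irs2, the protease genes Pappa and Pappa2, and the protease inhibitor gene Stc2. They were chosen by gene symbol from a table of 54532 entries. Each symbol matched 1 entry, and all 10 genes passed the filter on low counts that left 14150 genes for testing.

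IGF1 and IGF2 signal through the IGF1 receptor, a tyrosine kinase closely related to the insulin receptor, and the IRS adaptors relay the signal to PI3K and AKT. Most IGF outside the cell is held by IGF binding proteins (IGFBPs), which keep it from the receptor until a protease cuts them. Pappalysin-1 and pappalysin-2, encoded by Pappa and Pappa2, are such proteases, and stanniocalcin-2 inhibits them. IGFBP5 is a substrate of both pappalysins and has been studied in lung fibroblasts for its link to fibrosis.

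RNA-seq was performed on pFBs of wild type mice (WT, 4 libraries) and of mice homozygous for a human IGFBP5 transgene (HOMO, 4 libraries). The study describes the transgene as a CRISPR/Cas9 knock-in that is active throughout the body under an elongation factor promoter. Both groups were of the C57/black background, the study states that the mice were female, and the cells received no treatment. Age and the number of mice behind the 4 libraries of a group were not stated, so the p-values measure the spread between these libraries, which may be partly technical. The comparison asked which genes differ in pFBs that carry the transgene, whose own transcript was not analysed here.

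The libraries held between 17236521 and 31987790 counts, with a median of 20786062 in WT and 20589022 in HOMO. All fibroblast markers were expressed in both genotypes, with a summed level of 19040.1 to 25799.7 CPM (counts scaled to a common library size) in WT and 19257 to 32079 CPM in HOMO. Libraries did not stand at equal distances. The biological coefficient of variation across genes was 7.65% between WT1 and WT2, 4.71% between HOMO1 and HOMO2 and 5.07% between HOMO3 and HOMO4, against 30% to 56.5% for every other pair of the same genotype. Those close pairs were kept as separate libraries, though whether they are repeats of the same culture or mouse was not stated. Summing each pair left 3 WT and 2 HOMO units, and with them edgeR called 0 of the 14150 genes, with 2057 at an unadjusted p under 0.05. The summed level of macrophage and leukocyte markers was 134, 163, 2013 and 1174 CPM in WT1 to WT4 and 58.3, 62.4, 174 and 198 CPM in HOMO1 to HOMO4. It stood highest in WT3 and WT4, where Lyz2 made up most of it, and Marco stayed under 1 CPM in every library. Smooth muscle and pericyte markers summed to between 828 and 2732 CPM in WT and between 263 and 1474 CPM in HOMO, with the highest WT value in WT3 and the higher HOMO values in HOMO3 and HOMO4. Epithelial markers summed to 0.788 to 6.77 CPM in WT and 6.999 to 22.7 CPM in HOMO. Mesothelial markers summed to 104 to 186 CPM and 227 to 301 CPM, and endothelial markers to 13.3 to 214 CPM and 246 to 358 CPM. Eng made up most of the endothelial sums, with a mean of 66.8 CPM in WT and 293 CPM in HOMO. Pecam1, Cdh5, Tek, Cldn5 and Emcn stayed under 1 CPM throughout. In bulk RNA, fewer cells of a type and less RNA per cell cannot be told apart.

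A gene was called when the Benjamini-Hochberg adjusted p of edgeR's quasi-likelihood test, taken over all 14150 tested genes, was under 0.05 and the log2 fold change (log2FC, HOMO over WT) was above 0.6 in size. Pappa2 was the single gene of the 10 that was called, and it was higher in HOMO. The rule called 12.1% of all tested genes, and 5.94% in the upward direction, so 1 of 10 is near the background share. Pappa2 was also the single gene of the 10 whose levels did not overlap between the genotypes, against 27.3% of all tested genes. Of the 10 genes, 5 had a positive and 5 a negative log2FC. Their median log2FC was -0.02, beside -0.04 over all tested genes, and their median log2FC in size was 0.39, beside 0.41. At an unadjusted p under 0.05 stood 4 of the 10 (Igf2, Igf1r, Irs2 and Pappa2), and 4573 of the 14150. DESeq2 called 2 of the 10, Igf2 and Pappa2, against 16.5% of the 17608 genes it tested. Limma-voom with sample weights called 4, Igf2, Pappa, Pappa2 and Stc2, against 25.3% of all.

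**Figure D1:**
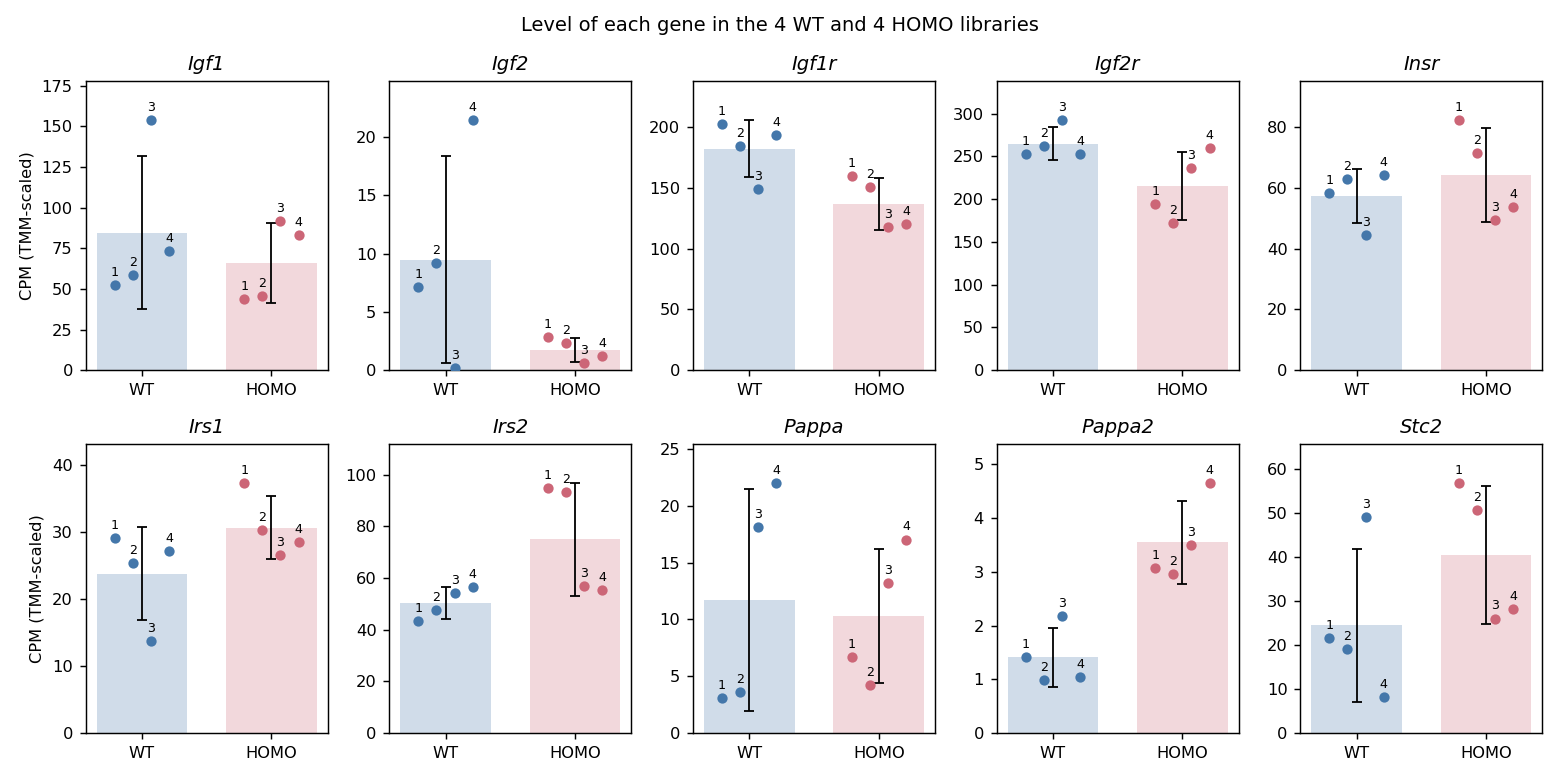
Level of each of the 10 genes in the 4 WT and 4 HOMO libraries, in CPM on library sizes scaled by TMM, with the library number beside each point, bars at the mean and error bars of 1 SD. Pappa2 is the gene whose WT and HOMO points do not overlap; the vertical axes start at 0 and differ between genes.

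To show the regulatory sequence of the gene that was called beside that of an adaptor gene whose window held a motif, the promoters of Pappa2 and Irs2 are printed. They run from 250 bases before the RefSeq transcript start to 50 after it, on GRCm38.p6. The Pappa2 window lies at chr1:158958126-158958425 on the minus strand, and the Irs2 window at chr8:11008880-11009179 on the minus strand. Capitals mark an E-box, CACGTG.
Pappa2: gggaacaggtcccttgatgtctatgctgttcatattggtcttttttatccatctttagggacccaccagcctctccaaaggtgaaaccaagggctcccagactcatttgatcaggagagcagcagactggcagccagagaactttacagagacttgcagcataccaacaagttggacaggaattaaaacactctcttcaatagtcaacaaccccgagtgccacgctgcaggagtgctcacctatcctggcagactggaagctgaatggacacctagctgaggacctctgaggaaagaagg
Irs2: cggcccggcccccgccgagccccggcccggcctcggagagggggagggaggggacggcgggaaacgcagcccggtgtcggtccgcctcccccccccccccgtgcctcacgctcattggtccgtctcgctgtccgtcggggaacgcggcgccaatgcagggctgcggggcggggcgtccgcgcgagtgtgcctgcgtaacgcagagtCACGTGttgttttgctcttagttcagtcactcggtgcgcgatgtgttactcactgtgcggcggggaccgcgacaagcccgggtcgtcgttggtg
The Pappa2 window held 49.7% G and C and 2 CG dinucleotides, while the Irs2 window held 72.0% and 41. Over 32851 promoters of this length, the median share of G and C was 52.7%, with 36.3% at the 5th and 73.7% at the 95th percentile. Of 5 motifs searched on both strands, the Pappa2 window held none of these letters. The motifs were a TATA box (TATAAA), AP-1 (TGANTCA), CREB (TGACGTCA), FOXO (GTAAACA) and the E-box. The E-box in Irs2 began at base 207 of the window. Irs1 and Igf2r held it too, in a set where 7.15% of all promoters did, and Igf1 held the AP-1 letters, as 7.81% did. The TATA, CREB and FOXO letters, found in 13.6%, 1.79% and 3.65% of all promoters, were in none of the windows of the 8 genes with an entry. Pappa and Insr had no entry. The RefSeq start of Pappa2 lies 22315 bases inside the span that GENCODE gives the gene.

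Igf1 encodes the ligand that acts through the IGF1 receptor in most tissues and that fibroblasts secrete. Igf1 lies at chr10:87858265-87937042 on the plus strand of GRCm38. Its level was 52.1, 58.8, 154 and 73.2 CPM in WT1 to WT4 and 44.0, 45.5, 91.5 and 82.9 CPM in HOMO1 to HOMO4. WT3 was the highest of all 8 libraries, HOMO3 and HOMO4 lay above the other HOMO libraries, and the genotypes overlapped. The mean was 84.5 ± 47.1 CPM in WT and 66.0 ± 24.7 CPM in HOMO (SD, n = 4 each), and the log2FC was -0.36 with a standard error (SE) of 0.39 and a 95% interval from -1.25 to 0.54 (edgeR adjusted p = 0.569). The sign rested on WT3. Without WT3 the log2FC of Igf1 was 0.10, and without both WT3 and WT4, a comparison added after the data were seen, it was 0.25. WT3 was also the library with the most macrophage and leukocyte and the most smooth muscle marker RNA. The cells that this RNA came from, and their part in the level of Igf1, were not tested.

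Igf2 encodes the fetal ligand, an imprinted gene expressed from the paternal copy that is mostly silent in the adult mouse. WT1 to WT4 held 127, 214, 3 and 555 counts of it and HOMO1 to HOMO4 held 64, 76, 12 and 24, which is 7.14, 9.18, 0.172 and 21.5 CPM and 2.85, 2.30, 0.608 and 1.20 CPM. WT1, WT2 and WT4 lay above every HOMO library, while WT3 lay below all of them. The mean was 9.50 ± 8.87 CPM in WT and 1.74 ± 1.02 CPM in HOMO (SD, n = 4 each). The log2FC was -2.44 with an SE of 1.01 and a 95% interval from -4.74 to -0.14, and it was not called (edgeR adjusted p = 0.136). WT3 held 3 counts, the floor of measurement used here. Without WT3 the log2FC of Igf2 was -2.85 and passed the threshold (edgeR adjusted p = 0.0176). Without WT4, the highest library, it was -1.65 (edgeR adjusted p = 0.283). Over all 18 alternatives it stayed below 0, from -2.85 to -1.65, with an adjusted p from 0.00451 to 0.514.

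Igf2 lies at chr7:142650766-142666816 on the minus strand. Of its exon bases, 62.8% are shared with the same-strand gene model Gm49394, which is listed at 0 in all 8 libraries, so reads that match both models may be missing from the count of Igf2. The antisense gene Igf2os shares 98 bases with it. The WT libraries held 15, 26, 2 and 16 counts of Igf2os and the HOMO libraries 3, 9, 7 and 1, in the order of their numbers, so it too was lowest within WT in WT3. The counting was not stated to use strand, and reads from the overlap cannot be told apart.

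The ligands differed in their balance between libraries. Per kilobase (kb) of exon, the ratio of the Igf2 level to the Igf1 level was 0.237, 0.270, 0.00194 and 0.508 in WT1 to WT4 and 0.112, 0.0874, 0.0115 and 0.0251 in HOMO1 to HOMO4. Over all exon bases Igf1 was the higher of the ligands in each library, and WT3 lay below every HOMO library. With Igf2 set over only the exon bases it does not share with Gm49394, a choice made after the data were seen, the ratio was 1.37 in WT4, so that Igf2 was the higher there, and 0.00521 to 0.727 in the other 7 libraries. WT3 was at once the library highest in Igf1 and lowest in Igf2.

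Igf1r encodes the receptor tyrosine kinase through which both ligands act. Igf1r lies at chr7:67952827-68233668 on the plus strand. Its level was 203, 184, 149 and 193 CPM in WT1 to WT4 and 159.5, 150.7, 117 and 119.8 CPM in HOMO1 to HOMO4. WT1, WT2 and WT4 lay above every HOMO library, and WT3 lay just below HOMO2 and HOMO1. The mean was 182 ± 23.6 CPM in WT and 137 ± 21.4 CPM in HOMO (SD, n = 4 each), and the log2FC was -0.41 with an SE of 0.16 and a 95% interval from -0.77 to -0.05 (edgeR adjusted p = 0.112). Chromosome 7 as a whole was lower in HOMO. The median log2FC of its 1045 tested genes was -0.29, and 23 of them were called up and 110 down. The median level on chromosome 7 was shifted by 0.01, 0.02, 0.38 and 0.05 on the log2 scale in WT1 to WT4. In HOMO1 to HOMO4 the shift was -0.17, -0.15, -0.05 and -0.04, so WT3 stood apart from the other libraries. Read against the shift of its chromosome in each library, Igf1r had a log2FC of -0.21 (edgeR adjusted p = 0.539). With no shift removed, the log2FC of Igf1r was -0.50 without WT3 (edgeR adjusted p = 0.0395). Leaving out any other library gave -0.49 to -0.34 (edgeR adjusted p from 0.153 to 0.269). Limma-voom with sample weights gave -0.54 (adjusted p = 0.00202). Igf1r was called in 0 of the 18 alternatives, and its log2FC stayed under the fold threshold in size in each.

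Insr encodes the insulin receptor, which binds insulin and, in 1 of its isoforms, IGF2. Insr lies at chr8:3122061-3279617 on the minus strand. Its level was 58.3, 62.8, 44.6 and 64.1 CPM in WT1 to WT4 and 82.4, 71.5, 49.4 and 53.6 CPM in HOMO1 to HOMO4. HOMO1 and HOMO2 stood above every WT library, whereas HOMO3 and HOMO4 fell within the WT range. The means were 57.5 ± 8.94 and 64.2 ± 15.5 CPM (SD, n = 4 each), with a log2FC of 0.16, an SE of 0.20 and a 95% interval from -0.29 to 0.61 (edgeR adjusted p = 0.614). Chromosome 8 was higher in HOMO, with a median log2FC of 0.37 over 790 genes, of which 135 were called up and 17 down. Against that shift the sign of Insr turned, to a log2FC of -0.25 (edgeR adjusted p = 0.391).

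Set per kb of exon, the ratio of Igf1r to Insr kept the genotypes apart without overlap. It was 2.85, 2.40, 2.73 and 2.47 in WT1 to WT4 and 1.58, 1.73, 1.95 and 1.83 in HOMO1 to HOMO4, with means of 2.61 ± 0.211 and 1.77 ± 0.155 (SD, n = 4 each). No test was run on ratios. On the log2 scale the ratio was lower in HOMO, with a difference of -0.56. The shift of chromosome 7 less that of chromosome 8 differed by -0.62 between the genotypes. With these shifts taken off, the log2 ratio was 1.36, 1.07, 0.85 and 1.03 in WT1 to WT4 and 1.09, 1.19, 1.20 and 1.07 in HOMO1 to HOMO4. The genotypes then overlapped, with a difference of 0.06.

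Igf2r encodes the mannose-6-phosphate receptor, which binds IGF2 and carries it to the lysosome without signalling through a kinase. Igf2r lies at chr17:12682406-12769664 on the minus strand. Its level was 253, 262, 293 and 252 CPM in WT1 to WT4 and 195, 172, 237 and 260.1 CPM in HOMO1 to HOMO4. HOMO1 to HOMO3 lay below every WT library, and HOMO4 lay within the WT range. The means were 265 ± 19.1 and 216 ± 39.9 CPM (SD, n = 4 each), and the log2FC was -0.30 with an SE of 0.16 and a 95% interval from -0.65 to 0.06 (edgeR adjusted p = 0.226). Igf2r had the narrowest WT range of the 10 genes, 0.21 on the log2 scale.

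Irs1 encodes an adaptor that the activated IGF1 and insulin receptors phosphorylate. Irs1 lies at chr1:82233101-82291416 on the minus strand, and 30.9% of its exon bases lie opposite the gene model Gm9747, which is listed at 0 in all libraries. Its level was 29.1, 25.3, 13.7 and 27.1 CPM in WT1 to WT4 and 37.4, 30.3, 26.5 and 28.6 CPM in HOMO1 to HOMO4. WT3 was the lowest of all 8 libraries, and the other WT libraries lay within or just below the HOMO range. The means were 23.8 ± 6.95 and 30.7 ± 4.73 CPM (SD, n = 4 each), with a log2FC of 0.37, an SE of 0.24 and a 95% interval from -0.19 to 0.92 (edgeR adjusted p = 0.328).

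Irs2 encodes the second main adaptor, a target of FOXO factors when insulin-like signals are low. Irs2 lies at chr8:10984681-11008458 on the minus strand. Its level was 43.2, 47.4, 54.2 and 56.5 CPM in WT1 to WT4 and 94.7, 93.2, 56.7 and 55.5 CPM in HOMO1 to HOMO4. HOMO1 and HOMO2 were high, and HOMO3 and HOMO4 sat beside WT3 and WT4. The means were 50.3 ± 6.11 and 75.0 ± 21.9 CPM (SD, n = 4 each), and the log2FC was 0.58 with an SE of 0.22 and a 95% interval from 0.09 to 1.07 (edgeR adjusted p = 0.107). Irs2 shares chromosome 8 with Insr, and read against the shift of that chromosome its log2FC was 0.16 (edgeR adjusted p = 0.625).

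Pappa encodes pappalysin-1, the protease that cuts IGFBP4 and IGFBP5. Pappa lies at chr4:65124174-65357509 on the plus strand. Its level was 3.04, 3.65, 18.1 and 22.1 CPM in WT1 to WT4 and 6.73, 4.21, 13.2 and 17.04 CPM in HOMO1 to HOMO4. In both genotypes the libraries fell into a low pair and a high pair, WT3 and WT4 being the high ones in WT and HOMO3 and HOMO4 in HOMO. The means were 11.7 ± 9.81 and 10.3 ± 5.88 CPM (SD, n = 4 each), and the log2FC was -0.19 with an SE of 0.71 and a 95% interval from -1.79 to 1.41 (edgeR adjusted p = 0.880). The mean of the log2 levels differed by 0.12 in the other direction. Limma-voom with sample weights gave a log2FC of 1.46 (adjusted p = 0.0225), and comparing WT1 and WT2 alone with the HOMO libraries gave 1.61 (edgeR adjusted p = 0.0796). The high pairs were also those with more macrophage and leukocyte and, for WT3 and the HOMO pair, more smooth muscle marker RNA, and their part in the level of Pappa was not tested. The median level on chromosome 4 was shifted by 0.27 on the log2 scale in WT4.

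Pappa2 encodes pappalysin-2, which cuts IGFBP3 and IGFBP5. Pappa2 lies at chr1:158711727-158980490 on the minus strand and shares 3.01% of its exon bases with the lincRNA 1600012P17Rik. WT1 to WT4 held 25, 23, 38 and 27 counts of it, and HOMO1 to HOMO4 held 69, 98, 69 and 93. That is 1.41, 0.987, 2.18 and 1.05 CPM in WT and 3.08, 2.96, 3.497 and 4.66 CPM in HOMO. Every HOMO library lay above every WT library, and WT3 came closest to the HOMO range. The mean was 1.40 ± 0.550 CPM in WT and 3.55 ± 0.776 CPM in HOMO (SD, n = 4 each). The log2FC was 1.34 with an SE of 0.34 and a 95% interval from 0.57 to 2.11, a 2.53-fold higher level in HOMO (edgeR adjusted p = 0.0363).

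The Pappa2 difference kept its direction, and its call depended on the fit. Over 18 alternatives the log2FC ranged from 1.20 to 1.76, and 8 of them called it. Among those 8 were DESeq2 (adjusted p = 0.00205) and limma-voom with sample weights (adjusted p = 0.000269). The 8 also included WT1 and WT2 alone against HOMO (log2FC 1.57, edgeR adjusted p = 0.013), a comparison added after the data were seen. The call ended without any 1 of WT1, WT2, WT4, HOMO1, HOMO2, HOMO3 or HOMO4, with an edgeR adjusted p between 0.0600 and 0.0922, and it stayed without WT3 (log2FC 1.63, edgeR adjusted p = 0.0106). It also ended with no filter on low counts (edgeR adjusted p = 0.0628) and with the close pairs summed (log2FC 1.30, edgeR adjusted p = 0.390). With the replicate number as a block the call ended too (log2FC 1.38, edgeR adjusted p = 0.0781). Pappa2 was the single gene of the 10 whose genotype difference, 1.33 as a mean of log2 levels, exceeded the range within both WT (1.08) and HOMO (0.64). The summed epithelial, mesothelial and endothelial marker levels were likewise higher in every HOMO than in every WT library. Few markers carried this, since every HOMO library lay above every WT library for 2 of 10 epithelial markers (Cdh1 and Hopx), 2 of 6 mesothelial markers (Wt1 and Bnc1) and 1 of 8 endothelial markers (Eng). The mean level was lower in HOMO for Foxj1, Msln, Krt19, Tek and Vwf, and higher for the other markers of these lists. Krt19 fell the most among these, from 16.9 CPM in WT to 2.04 CPM in HOMO. The part of these markers in the level of Pappa2 was not tested. Its chromosome showed little shift, with a median log2FC of -0.06 over 840 genes, and with that shift removed Pappa2 had a log2FC of 1.32 (edgeR adjusted p = 0.0405).

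The genes outside the 10 whose log2 profile lay nearest to that of Pappa2 over the 8 libraries were Pcdhb11, Miga1 and Neto2. Their root mean square difference from it was 0.184, 0.226 and 0.231 on the log2 scale, after each gene was centred on its own mean. Pcdhb11 encodes a protocadherin, Miga1 a protein of mitochondrial fusion and Neto2 an auxiliary subunit of kainate receptors. Likeness of profile over 8 libraries in close pairs is given as a description.

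Stc2 encodes stanniocalcin-2, a secreted inhibitor of the pappalysins. Stc2 lies at chr11:31357307-31370074 on the minus strand. Its level was 21.7, 19.003, 49.1 and 8.25 CPM in WT1 to WT4 and 57.0, 50.7, 26.1 and 28.3 CPM in HOMO1 to HOMO4. HOMO1 and HOMO2 were the highest, WT3 came next, and the other WT libraries lay below all HOMO libraries. The means were 24.5 ± 17.4 and 40.5 ± 15.6 CPM (SD, n = 4 each), and the log2FC was 0.73 with an SE of 0.50 and a 95% interval from -0.41 to 1.87 (edgeR adjusted p = 0.348). Without WT3 the log2FC of Stc2 was 1.31 (edgeR adjusted p = 0.0645), and without WT4 it was 0.44 (edgeR adjusted p = 0.499).

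Per kb of exon, the ratio of Pappa2 to Pappa was 0.496, 0.290, 0.129 and 0.0507 in WT1 to WT4 and 0.489, 0.755, 0.284 and 0.293 in HOMO1 to HOMO4. Pappa was the more abundant protease transcript in every library, and the genotypes overlapped. The ratio of the inhibitor Stc2 to Pappa was 15.2, 11.1, 5.77 and 0.796 in WT and 18.0, 25.7, 4.21 and 3.54 in HOMO. It was high in WT1, WT2, HOMO1 and HOMO2, where Pappa was low, and below 1 in WT4, where it was 1.03 with the longest transcript as gene length.

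**Figure D2:**
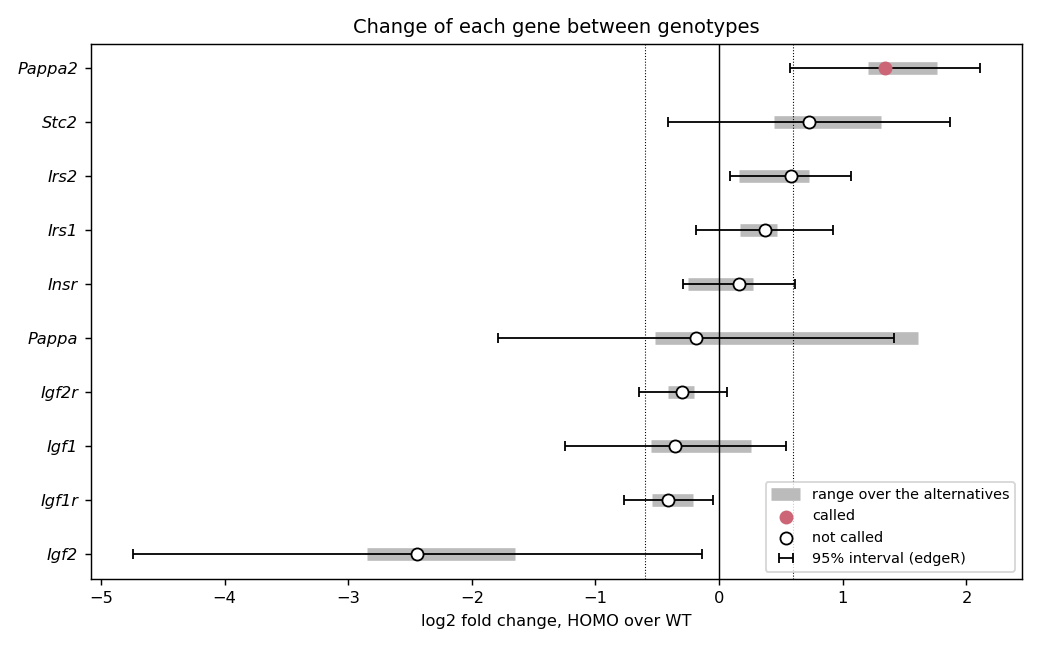
Log2FC of each of the 10 genes, HOMO over WT, with the range over the alternatives as grey bars. Thin bars are the 95% interval derived from edgeR's F statistic. Dotted lines stand at the fold threshold of 0.6 in size. Pappa2 is the filled point at 1.34, the grey bars of Igf1, Insr and Pappa cross 0, and the interval of Igf2 is the widest.

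On the scale of CPM per kb of exon, which takes gene length out of a comparison of levels between genes, Igf2r was the highest of the 10 in both genotypes, with 28.5 ± 2.05 in WT and 23.2 ± 4.29 in HOMO (SD, n = 4 each). In WT it was followed by Igf1r (10.9), Igf1 (8.53), Irs2 (7.96), Stc2 (4.74), Insr (4.18), Irs1 (2.60), Igf2 (1.66), Pappa (1.06) and Pappa2 (0.136). Among neighbours in that order, only Igf2r and Igf1r, Insr and Irs1, and Pappa and Pappa2 had ranges over the 4 WT libraries that did not overlap. In HOMO the order after Igf2r was Irs2 (11.9), Igf1r (8.15), Stc2 (7.83), Igf1 (6.66), Insr (4.67), Irs1 (3.36), Pappa (0.933), Pappa2 (0.345) and Igf2 (0.304). There only Igf2r and Irs2, and Irs1 and Pappa, were neighbours without overlap. Irs2 stood above Igf1r in each of the 4 HOMO libraries over the union of exons. With the longest transcript as length it did so in 2 of them, HOMO1 and HOMO2, and the HOMO means were 11.87 for Irs2 and 11.997 for Igf1r. The place of Igf2 depended on its shared bases. Over its unshared exon bases it was at 4.46 in WT, above Insr, and at 0.819 in HOMO, above Pappa2.

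**Figure D3:**
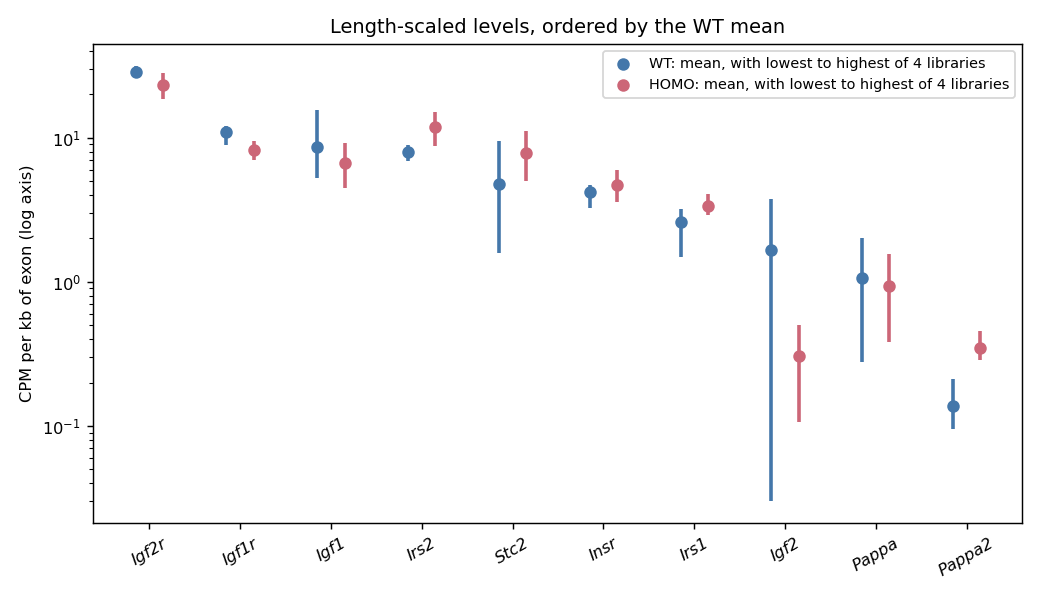
Mean level of the 10 genes in CPM per kb of exon on a log axis, ordered by the WT mean, with lines from the lowest to the highest of the 4 libraries of each genotype. Igf2r leads at 28.5 in WT and 23.2 in HOMO, and the WT line of Igf2 is the longest because WT3 held 3 counts.

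On the log2 scale the range over the WT libraries exceeded the genotype difference for 7 of the 10 genes, beside 83.0% of all tested genes, and the range over the HOMO libraries for 9, beside 54.2%. The difference between the HOMO3 and HOMO4 pair and the HOMO1 and HOMO2 pair was larger than the genotype difference for 7 of the 10, beside 38.3% of all. Relative to HOMO1 and HOMO2, the later pair was higher in Pappa by 1.48, Igf1 by 0.96, Igf2r by 0.44 and Pappa2 by 0.41. It was lower in the others, with differences of -1.48 for Igf2, -0.98 for Stc2, -0.74 for Irs2, -0.58 for Insr, -0.39 for Igf1r and -0.29 for Irs1. The summed levels of macrophage and leukocyte and of smooth muscle markers were higher in HOMO3 and HOMO4 as well, though Cd14 was not. The part of these markers in these differences was not tested.

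**Figure D4:**
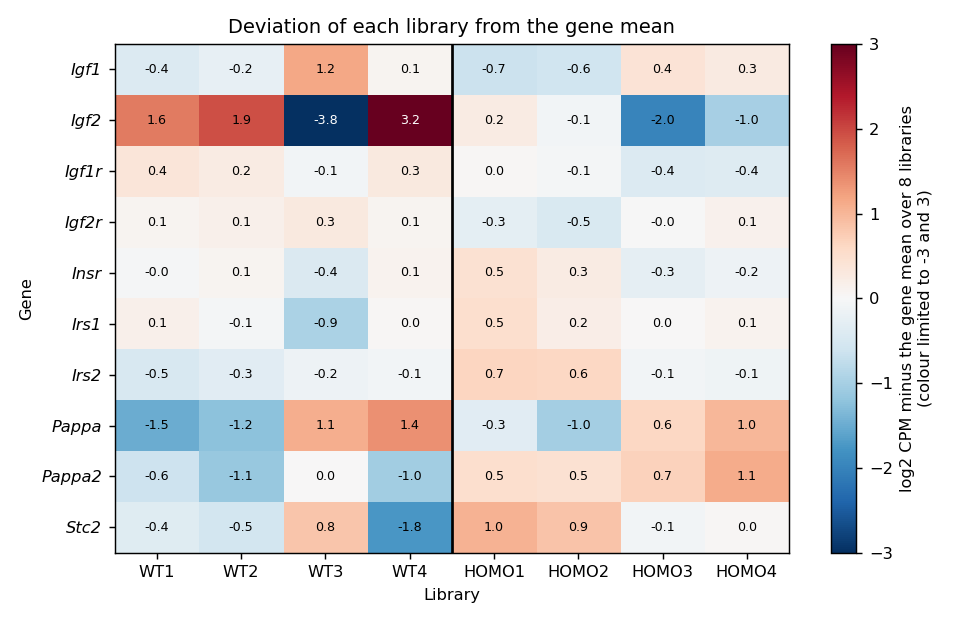
Deviation of each library from the mean of its gene over the 8 libraries, in log2 CPM, with the color scale limited to -3 and 3 and the WT libraries left of the black line. WT3 stands apart in Igf2, Igf1 and Irs1, libraries 1 and 2 of each genotype resemble each other, and Pappa2 is the row with one sign on each side of the line apart from WT3, which lies at its mean.

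Around the 10 genes, 83 other genes of IGF signalling were grouped into 6 lists by role, and 73 of them were tested. Of these, 7 rose, 7 fell and 59 were not called, so 19.2% were called, beside 12.1% of all tested genes. The mouse counterpart of the transgene, Igfbp5, is described first among the binding proteins. The WT libraries, in order, held 130, 225, 7130 and 112 counts of it and the HOMO libraries 24, 37, 37 and 57, which is 7.31, 9.65, 409 and 4.34 CPM and 1.07, 1.12, 1.88 and 2.86 CPM. It fell, with a log2FC of -5.97 (edgeR adjusted p = 0.0469). WT3 alone set the size of that value, which was -2.04 without it (edgeR adjusted p = 0.0195), and the call ended without any 1 of the HOMO libraries (edgeR adjusted p up to 0.139).

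Of the IGF binding proteins, 4 of the 6 tested fell and none was called higher, with a median log2FC of -3.11. Igfbp4, a binding protein that pappalysin-1 cuts, was at 370, 396, 391 and 140 CPM in WT1 to WT4 and at 23.5, 27.1, 28.6 and 32.4 CPM in HOMO1 to HOMO4. Its log2FC was -3.54 (edgeR adjusted p = 0.00124), and it was called without each of the 8 libraries in turn. Igfbp2 was at 24.8, 22.1, 43.4 and 987 CPM in WT and between 9.07 and 10.6 CPM in HOMO. Its log2FC of -4.76 (edgeR adjusted p = 0.0487) was -1.60 without WT4 (edgeR adjusted p = 0.0102), and its call too ended without any 1 of the HOMO libraries. Igfbp7 also fell.

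Stc1, the paralog of Stc2, was singled out after its values were seen. It was at 22.1, 18.5, 78.8 and 6.62 CPM in WT and at 237, 272, 38.3 and 42.0 CPM in HOMO, so that it shared with Stc2 the high values of HOMO1 and HOMO2 and of WT3 within WT. Its log2FC was 2.23 with an SE of 0.89 (edgeR adjusted p = 0.126). Without WT3 it passed the threshold (edgeR adjusted p = 0.0425).

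Among the 17 tested partners and brakes of the receptors, 3 rose and 1 fell. Gab1, a docking protein for growth factor receptors, had the lowest adjusted p of them, with 39.3 to 47.8 CPM in WT and 107 to 146 CPM in HOMO and a log2FC of 1.60 (edgeR adjusted p = 0.00111). Socs3, a feedback inhibitor of cytokine and insulin signalling, rose with a log2FC of 1.05 (edgeR adjusted p = 0.0188), and Grb14, an adaptor that inhibits the insulin receptor, with 1.01 (edgeR adjusted p = 0.0158). The calls of Socs3 and Grb14 ended without HOMO1 or HOMO2, with an edgeR adjusted p of up to 0.0690. Enpp1, a membrane enzyme known to bind and inhibit the insulin receptor, was at 3.90 to 19.2 CPM in WT and 0.758 to 3.86 CPM in HOMO, with a log2FC of -2.50 (edgeR adjusted p = 0.0422), and was called in 1 of 8 fits that left out a library, the fit without WT3.

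Of 20 tested genes of the PI3K, AKT and FOXO relay, 2 rose and 18 were not called, with a median log2FC of 0.09. Pik3cb, a catalytic subunit of PI3K, had a log2FC of 0.89 (edgeR adjusted p = 0.0194) and Pik3r2, a regulatory subunit encoded on chromosome 8, one of 0.61 (edgeR adjusted p = 0.0308). The call of Pik3cb ended without HOMO1 or HOMO2 (edgeR adjusted p up to 0.0728), and that of Pik3r2 without WT1, WT2, HOMO1, HOMO2 or HOMO4 (up to 0.107). Among 10 FOXO-responsive genes 1 rose and 1 fell. Pdk4, a kinase that shuts down pyruvate dehydrogenase, was at 27.0 to 29.5 CPM in WT and 6.17 to 9.73 CPM in HOMO, with a log2FC of -1.83 (edgeR adjusted p = 0.00217). Trib1, a pseudokinase, was at 37.2 to 101 CPM in WT and 173 to 176 CPM in HOMO, with a log2FC of 1.09 (edgeR adjusted p = 0.0377), and was called in 1 of 8 fits that left out a library, the fit without WT3. Irs2, a FOXO target among the 10 genes, was not called. Among 12 tested genes that act on the ligands, Igf2bp2 rose. It encodes a protein that binds Igf2 mRNA, and its level was 73.5 to 88.5 CPM in WT and 137 to 183 CPM in HOMO, with a log2FC of 0.98 (edgeR adjusted p = 0.00584).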

How the data were processed

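Per the labels and the study's methods, total RNA of pFBs was sequenced from NEBNext Ultra libraries. The submitters' processing notes name CASAVA, STAR, featureCounts, DESeq2 and mm10, and give no versions. The authors deposited 1 table of raw read counts per gene, not normalized. Its name contains the word outlierout, which was not explained. Whether libraries were left out beforehand was not stated. Whether counting used strand was not given in the sources used here. The 10 genes, the lists and the tests were chosen with earlier results of these data known.

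The counts were tested with edgeR 4.0.16 in R 4.3.3: filterByExpr by genotype, TMM scaling, and glmQLFit with glmQLFTest of HOMO against WT on all 8 libraries. A call needed a Benjamini-Hochberg adjusted p under 0.05 and a log2FC above 0.6 in size. The study's methods name DESeq2 with these thresholds, so DESeq2 1.42.0 was an alternative, as was limma 3.58.1 (voom with sample weights). CPM used TMM-scaled library sizes, on which 3 counts equal 0.0908 to 0.172 CPM, and log2 CPM a prior count of 2. Levels per kb used the union of exons in GENCODE M21 (GRCm38, the mm10 assembly). The edgeR, DESeq2, limma-voom and replicate-block fits were tested on simulated counts, which held no close pairs of libraries. By rule, the genes named were the 10, Igfbp5, at most 3 called genes per list and direction, and the 3 nearest profiles of each called gene of the 10. Others named were Igfbp7, the remaining called binding protein, cell type markers, Ins1 and Ins2, and gene models that share exon bases with the 10. Stc1 and H19 were singled out after values were seen.

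The correlation of deviations between same-numbered WT and HOMO libraries was -0.0910, -0.0424, 0.0141 and -0.124. These values gave no sign of pairing by number. They cannot settle it, because HOMO1 resembled HOMO2 and HOMO3 resembled HOMO4. The labels name no pairs, and the main fit had no block. Other alternatives were RLE and upper-quartile scaling, an offset per library and chromosome, other filters, no fold threshold, the replicate number as a block, summed close pairs, leaving out each library, and the longest transcript as gene length. Leaving out WT3 and WT4 together was added after seeing the data. Human transgene reads were not analysed here, and 1 gene of the lists is not reported here.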

Additional observations from a re-analysis of the deposited data

How the results depend on the processing

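The number of the 10 genes called was 1, Pappa2, and the other counts were 1716 of all tested genes and 14 of the other IGF genes. With RLE or upper-quartile scaling, the chromosome offset, a filter of CPM above 1 in at least 4 libraries or no fold threshold, Pappa2 stayed the single one of the 10, and the other counts stayed within 1.5 times. DESeq2 called 2 of the 10, 2913 genes and 22 IGF genes, and limma-voom with sample weights 4, 3573 and 30. Without a filter on low counts edgeR called 0 of the 10, with 4 at an unadjusted p under 0.05. With the replicate block edgeR called 0 of the 10 (2 at an unadjusted p under 0.05), 947 genes and 9 IGF genes. Pappa2 had a log2FC of 1.38 and an adjusted p of 0.0781 under that block. With the close pairs summed edgeR called 0, 0 and 0, with 0, 2057 and 16 at an unadjusted p under 0.05. Leaving out WT3 and WT4, which was added after the data were seen, gave 2, 3117 and 27. Leaving out 1 library at a time gave 0 to 2, 507 to 2192 and 5 to 22, with the lowest counts of genes without HOMO1 (507) or HOMO2 (512) and the highest without WT3.

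The log2FC of 7 of the 10 genes kept its sign under every alternative run. Igf1 turned to 0.26 with limma-voom and 0.25 without WT3 and WT4, and ranged from -0.55 to 0.10 when 1 library was left out. Insr turned to -0.06 with limma-voom and -0.25 with the chromosome offset. Pappa turned to 1.46 with limma-voom, 0.11 with the replicate block and 1.61 without WT3 and WT4, and ranged from -0.52 to 0.31 when 1 library was left out. The cause was not tested. Ratios per kb moved by less than 1 SD with the longest transcript as length. The ratio of Igf2 to Igf1, 0.254 in WT and 0.0591 in HOMO, was 0.684 and 0.159 over the unshared bases of Igf2, which was added after the data were seen. Depth limits Pappa2, at 23 to 98 counts, and Igf2, at 3 to 555.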

Other observations

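H19, the imprinted non-coding RNA that neighbours Igf2 and is expressed from the maternal copy, was looked up after the values of Igf2 were seen. The WT libraries, in order, held 26, 34, 21 and 16 counts of H19 and the HOMO libraries 4, 7, 27 and 16. The genotypes overlapped, and HOMO1 and HOMO2 were the lowest. WT3, which held 3 counts of Igf2, was within the WT range of H19 at 1.21 CPM. The log2FC of H19 was -0.91 with an SE of 0.66 (edgeR adjusted p = 0.372). The insulin genes Ins1 and Ins2 were at or under 3 counts per library.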
